A study of Homo sapiens with 9 samples.

Results

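The genes described here are the 9 that encode ribonucleotide reductase and the enzymes that supply pyrimidine deoxynucleotides in HL-60, an established line of human acute myeloid leukaemia. They are RRM1, RRM2, RRM2B, TYMS, DUT, CTPS1, TK1, CAD and DHODH, chosen by symbol from 20637 genes in the normalized count matrix. All 9 were found and all 9 passed the filter on low values, as did 12569 genes in all. Polyadenylated RNA was sequenced from 3 groups with 3 replicates each, all passaged at most 10 times after thawing. The labels do not say what separates replicates, so p-values measure the spread between these libraries, which may be technical. Parental cells carried no stated resistance. HRA cells were resistant to cytarabine (Ara-C) and grew in 100 nM of it, and HRD cells were resistant to daunorubicin (DNR) and grew in 30 nM of it. Each resistance is represented by HRA or HRD cells alone, and the labels do not say whether these are clones. Resistance, the drug in the medium and other differences of that cell population cannot be told apart.

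Ribonucleotide reductase turns ribonucleoside diphosphates into deoxyribonucleoside diphosphates, the step that limits the supply of DNA precursors. RRM1 is its large subunit, with the catalytic and allosteric sites, and pairs with a small subunit that carries a tyrosyl radical. RRM2 is the small subunit of dividing cells and peaks in S phase, and RRM2B is the one that DNA damage induces and that serves resting cells and mitochondrial DNA. In pyrimidine synthesis CAD carries out the opening steps, DHODH oxidises dihydroorotate in mitochondria and CTPS1 makes CTP from UTP. DUT cleaves dUTP to dUMP, TYMS methylates dUMP to dTMP, and TK1 makes dTMP from salvaged thymidine. Cytarabine is a deoxycytidine analogue whose triphosphate competes with dCTP, and dCTP also inhibits DCK, the kinase that activates the drug.

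The libraries held 20822709 to 66563328 reads. A member had 264 reads or more in every library, where counting error alone is 6.15%. In a principal component analysis of log2 values, component 1 (47.5% of the variance) set HRD apart, component 2 (23.2%) separated HRA from parental cells and component 3 (9.07%) held replicate 2 of each group away from replicates 1 and 3. Of 7 promyelocyte markers, 6 were expressed in all 3 groups (MPO, PRTN3, AZU1, CTSG, CD33 and MYB), whereas ELANE, the neutrophil elastase gene, had 12 reads in all 9 libraries together. Their summed level ran from 301339 to 344229 in parental libraries, from 274576 to 304843 in HRA and from 223494 to 279006 in HRD, and most of that sum was MPO. Within the list, CTSG fell in HRA (−1.39, adjusted p = 2.31e-05) and in HRD (−0.69, adjusted p = 4.09e-04), PRTN3 fell in HRA (−1.64, adjusted p = 0.0129) and CD33 rose in HRA (0.30, adjusted p = 0.0267). The part of these markers in the results below was not tested. Markers of other lineages were low, with summed levels per library of at most 28.4 for 3 T cell genes, 40.6 for 2 B cell genes and 1.22 for KRT19 and COL1A1 together. Of the B cell genes, MS4A1 had 1 read in all libraries, and CD79A had means of 13.6, 30.1 and 4.08 in parental, HRA and HRD cells and was lower in HRD than in parental cells (−1.60, adjusted p = 0.0304) and than in HRA (−2.71, adjusted p = 0.00165).

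In HRA cells RRM1, RRM2B and TK1 rose and no member fell (limma, with p-values adjusted by Benjamini and Hochberg's method over 12569 genes and a threshold of 0.05). These 3 of 9 members compare with 15.2% of all tested genes called in that comparison, and the 3 rises with 9.13% called higher and 6.10% called lower. In HRD cells 1 of 9 members was called, a rise of RRM2B, where 22.8% of all tested genes were called and 10.7% were called higher. Between the resistant cells, RRM1, TK1 and CAD were lower in HRD than in HRA, 3 of 9 members against 30.1% of all tested genes, with 16.2% called lower. The members' median log2 fold change was 0.12 in HRA, 0.01 in HRD and −0.07 for HRD against HRA, beside −0.01, 0.01 and 0.00 over all tested genes. The first 2 comparisons share the parental libraries, so they are not independent of each other.

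Parental and HRA libraries with the same replicate number had correlated deviations from their group means (r from 0.14 to 0.38), and RRM1, RRM2, TYMS and TK1 were each highest in replicate 2 of both groups. A fit that also takes up the replicate number called 4 members higher in HRA, RRM2 in addition to the 3, where it called 22.1% of all tested genes. In HRD that block fit called 2 members, RRM2B higher and CAD lower (29.0% of all genes), and between HRD and HRA 4 lower, RRM2 in addition (37.2%). On recovered reads edgeR called 3, 1 and 3 members in the 3 comparisons (15.3%, 22.7% and 30.2% of all genes), and DESeq2 4, 2 and 3 (18.8%, 25.0% and 32.7%). With replicates 1 and 3 of all groups alone, limma called 1 member in HRA, TK1. Leaving out parental replicate 3 or HRA replicate 2 gave 0 members in HRA by limma, and leaving out parental replicate 1 or HRA replicate 1 gave 1.

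**Figure D1:**
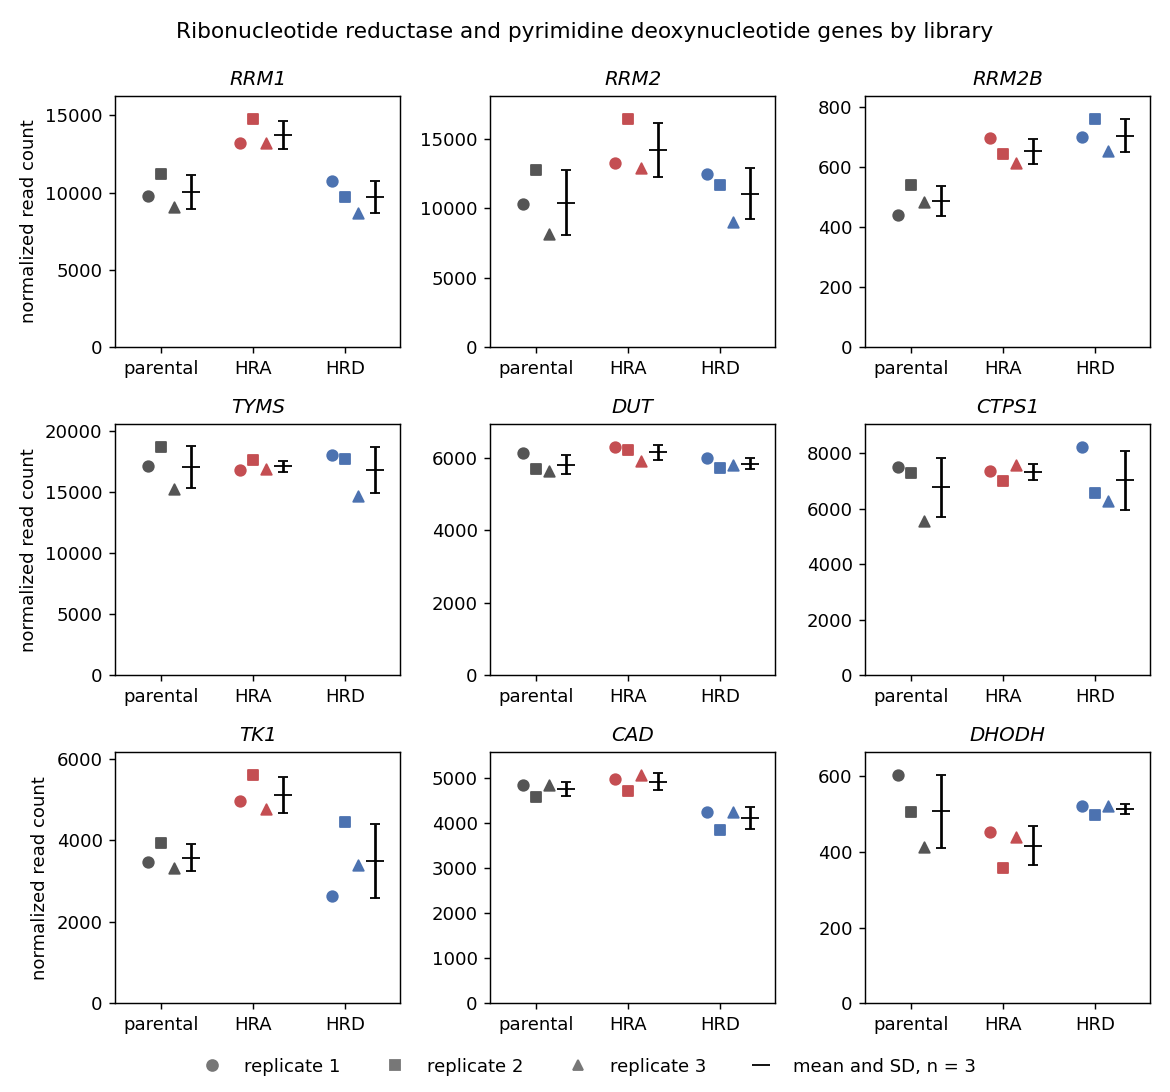
Normalized read count of each member (vertical axis, starting at 0) in parental, HRA and HRD libraries. Symbols mark the replicates, and the bar to the right of each group is the mean with its SD (n = 3). RRM1, RRM2 and TK1 are highest in HRA, RRM2B is lowest in parental cells, and TYMS, DUT and CTPS1 overlap in all groups.

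**Figure D2:**
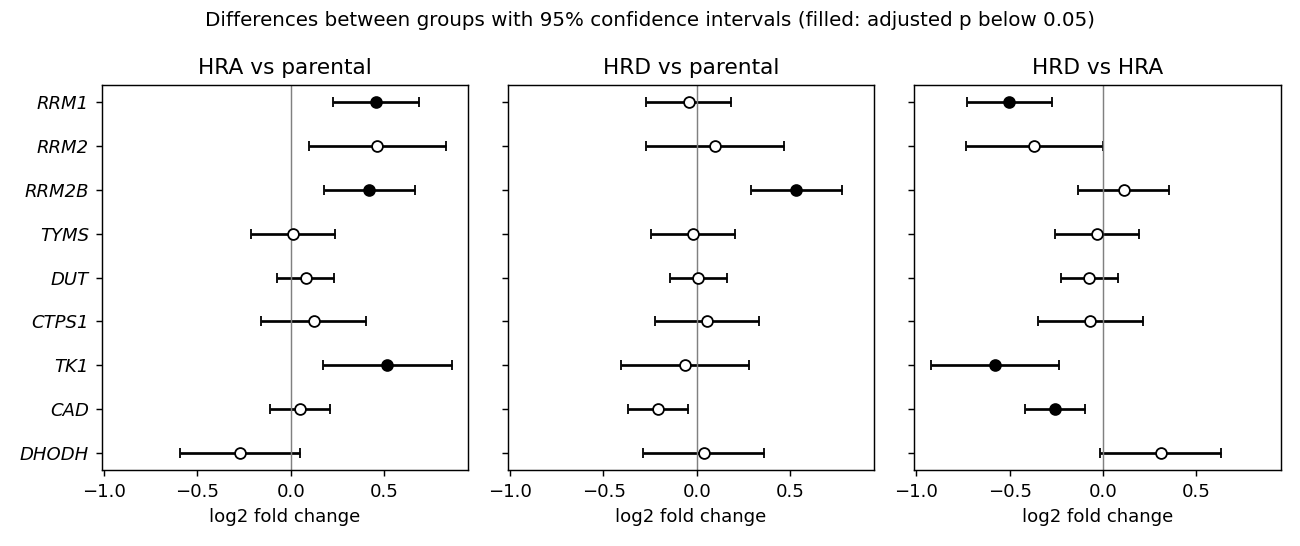
Log2 fold change (horizontal axis) of each member in 3 comparisons with its 95% confidence interval from the limma fit. Filled points have an adjusted p below 0.05: RRM1, RRM2B and TK1 in HRA, RRM2B in HRD, and RRM1, TK1 and CAD for HRD against HRA.

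RRM1, the large subunit, stood at a normalized read count of 9793, 11227 and 9084 in parental replicates 1, 2 and 3, at 13216, 14782 and 13238 in HRA, and at 10772, 9746 and 8685 in HRD. Every HRA library lay above every parental and every HRD library, and the parental and HRD libraries overlapped. The means were 10035 ± 1092 in parental cells, 13745 ± 898 in HRA and 9734 ± 1043 in HRD (SD, n = 3 each). The difference between HRA and parental cells was 0.46 ± 0.10 on the log2 scale (SE, adjusted p = 0.0144), a 1.37-fold rise. That call was lost with replicates 1 and 3 alone (0.49, adjusted p = 0.0572). It was also lost when parental replicate 3 was left out (adjusted p = 0.0510), and likewise for HRA replicate 2 (adjusted p = 0.0662). The value in HRD was −0.04 ± 0.10 (adjusted p = 0.809), with a 95% interval of −0.27 to 0.19. The difference of HRD from HRA was −0.50 ± 0.10 (adjusted p = 0.00472), and this call was kept in all 14 alternative fits, with adjusted p-values from 1.37e-04 to 0.0434.

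The stretch before the RRM1 start is shown beside that of TYMS, whose level did not pass in any comparison. They are the 250 bases before the only RefSeq start of each gene in the table used (GRCh38.p14), 5′ to 3′, with matches to an E2F core or to CCAAT in capitals.
RRM1 chr11:4094435-4094684 + strand: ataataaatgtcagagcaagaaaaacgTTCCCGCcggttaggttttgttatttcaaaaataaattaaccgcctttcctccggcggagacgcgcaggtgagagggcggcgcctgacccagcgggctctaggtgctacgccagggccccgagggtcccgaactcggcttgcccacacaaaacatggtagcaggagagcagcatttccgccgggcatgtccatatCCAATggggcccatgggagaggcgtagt
TYMS chr18:657403-657652 + strand: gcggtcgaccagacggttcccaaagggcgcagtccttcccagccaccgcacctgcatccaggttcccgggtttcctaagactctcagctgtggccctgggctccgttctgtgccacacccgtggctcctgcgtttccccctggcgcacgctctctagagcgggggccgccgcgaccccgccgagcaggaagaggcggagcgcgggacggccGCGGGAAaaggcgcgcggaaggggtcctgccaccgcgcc
The E2F core was searched as any of TTCCCGC, the variant TTGGCGC, the variant TTCGCGC and the variant TTGCCGC. The cell cycle element CHR was searched as TTTGAA or else as TTCGAA, and all motifs on both strands of windows from 250 bases before to 50 after each start. An E2F core was found in 4553 of 35116 such windows (13%), CCAAT in 34.6% and CHR in 16.4%. Windows were found for 8 of the 9 members, 14 windows in all, and in none of them did matches overlap. An E2F core was present in at least 1 window of 5 members, RRM1, RRM2, TYMS, DUT and TK1, and CCAAT in 5, RRM1, RRM2, TK1, CAD and DHODH. CHR matched in RRM1 and DUT. Counted the same way, with at least 1 window, the shares over 27305 genes were 15.3% for the E2F core, 39.7% for CCAAT and 19.5% for CHR, and genes with more starts have more windows in which to match. CTPS1 had no match to any of the motifs. The members with an E2F core thus include genes that rose in HRA and genes that did not pass.

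RRM2, the small subunit of dividing cells, varied more between replicates than RRM1. Its values were 10315, 12802 and 8167 in parental replicates 1, 2 and 3, 13276, 16470.1 and 12947 in HRA, and 12511, 11680.4 and 9019 in HRD. All HRA libraries lay above all parental and all HRD libraries, although the lowest HRA value exceeded the highest parental value by little. Means were 10428 ± 2319, 14231 ± 1946 and 11070.3 ± 1824 (SD, n = 3 each). The log2 difference between HRA and parental cells was 0.46 ± 0.17 (adjusted p = 0.0857), as large as that of RRM1 but with a wider interval, 0.10 to 0.83. It passed in the block fit (adjusted p = 0.0101), without parental replicate 2 (0.62, adjusted p = 0.0331) and by DESeq2 on recovered reads (adjusted p = 0.0466), and not in the other 11 alternatives. In HRD the value was 0.10 ± 0.17 (adjusted p = 0.732), and HRD against HRA gave −0.37 ± 0.17 (adjusted p = 0.120), which passed only with the block (adjusted p = 0.0167).

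The downstream start of RRM2 lies behind a group of 3 CCAAT boxes, the element bound by the factor NF-Y. The downstream start of TK1 has 2 on the opposite strand, which read ATTGG. The boxes of these downstream starts are each shown with 10 bases on either side. They come from RefSeq windows of GRCh38.p14, 5′ to 3′ along the gene, with the box in capitals. A further CCAAT match, in the window of the upstream RRM2 start, is not shown.
RRM2 site a chr2:10122606-10122630 + strand: caaggcgcagCCAATgggaagggtc
RRM2 site b chr2:10122636-10122660 + strand: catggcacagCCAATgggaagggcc
RRM2 site c chr2:10122663-10122687 + strand: ggcaccaaagCCAATgggaagggcc
TK1 site a chr17:78187115-78187139 minus strand: ccgggcgctgATTGGccccatggcg
TK1 site b chr17:78187084-78187108 minus strand: ccggctcgtgATTGGccagcacgcc
The RRM2 boxes shown begin 123, 93 and 66 bases before the downstream of the gene's 2 RefSeq starts. The TK1 boxes begin 77 and 46 bases before the downstream of its 2.

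RRM2B, the damage-inducible small subunit, was the only member called in both resistant cells. Its values were 439, 539 and 484 in parental replicates 1, 2 and 3, 698, 643 and 614 in HRA, and 699, 761 and 652 in HRD. Every resistant library lay above every parental one, while HRA and HRD overlapped. Its level rose from 487 ± 49.7 to 652 ± 42.7 in HRA (log2 0.42 ± 0.11, adjusted p = 0.0270) and to 704 ± 54.6 in HRD (0.53 ± 0.11, adjusted p = 0.00589; SD of levels, n = 3 each), 1.34-fold and 1.45-fold. The HRD call was kept in all 14 alternatives (adjusted p from 2.25e-04 to 0.0370). The HRA call was kept in 9. Leaving out parental replicate 1 or 3 ended it (adjusted p = 0.0779 and 0.0611), as did leaving out HRA replicate 1 or 2 (0.118 and 0.0773) or all replicates 2 (0.0764). HRD against HRA gave 0.11 ± 0.11 (adjusted p = 0.480), with an interval of −0.13 to 0.35.

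The gene sits on chromosome 8, where the median log2 fold change of 400 tested genes was 0.49 in HRA (interquartile range 0.34 to 0.67), with 222 called higher and 2 lower. The RRM2B value in HRA fell inside that range, 0.07 below the median, and 36.5% of the genes of the chromosome had lower values. In HRD the chromosome median was 0.16 (interquartile range −0.01 to 0.35, 70 higher and 20 lower), and the RRM2B value of 0.53 lay 0.37 above it and above 86.0% of those genes. A neighbour of RRM2B among tested protein-coding genes moved in another way. NCALD, which encodes the calcium sensor neurocalcin delta, had 959 reads in the parental libraries, 943 in HRA and 5 in HRD. Its normalized level was 290 ± 17.3 in parental cells, 312 ± 30.5 in HRA and 1.55 ± 0.574 in HRD (log2 −6.86 ± 0.22, adjusted p = 2.80e-09), next to a gene that rose in the same cells.

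**Figure D3:**
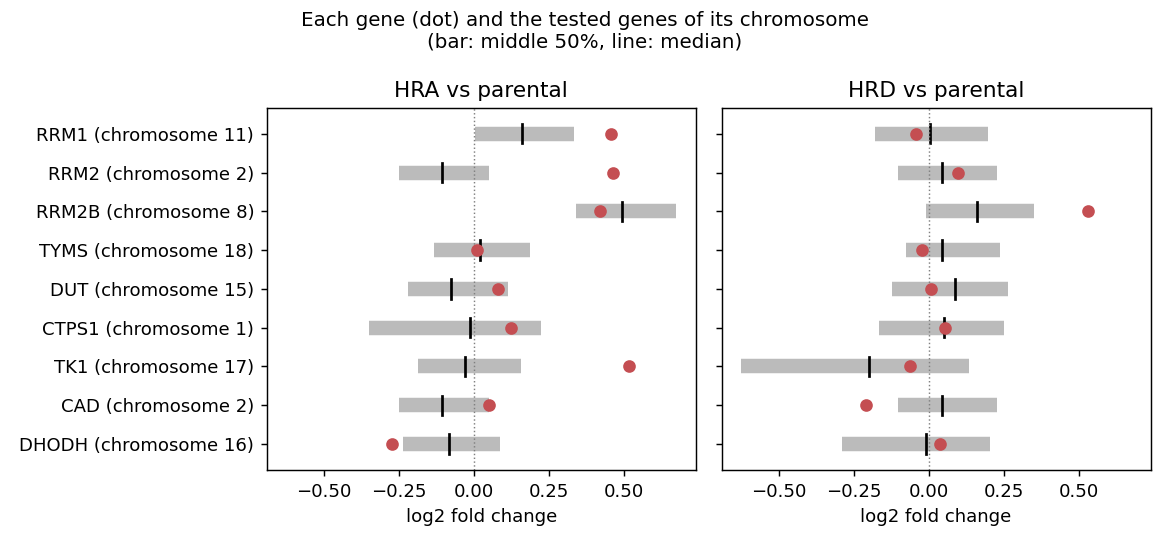
Log2 fold change (horizontal axis) of each member (dot) beside the tested genes of its chromosome (grey bar, interquartile range; black line, median) in HRA and HRD. RRM2B lies inside the bar of chromosome 8 in HRA and right of it in HRD, while RRM1, RRM2 and TK1 lie right of their bars in HRA.

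The other members that were higher in HRA lay above the interquartile ranges of their chromosomes. RRM1 (0.46) stood above the median of chromosome 11 (0.16, interquartile range 0.00 to 0.33). Of 692 tested genes there, 91 were called higher and 10 lower. RRM2 (0.46) stood above the median of chromosome 2 (−0.11, −0.25 to 0.05), with 37 called higher and 67 lower. TK1 (0.52) stood above that of chromosome 17 (−0.03, −0.19 to 0.16), with 43 higher and 29 lower. The part of the chromosomes in these values was not tested. The immediate neighbour of RRM1 on one side, STIM1, a calcium sensor of the endoplasmic reticulum, also rose in HRA (0.45 ± 0.12, adjusted p = 0.0317) and was lower in HRD than in HRA (−0.40 ± 0.12, adjusted p = 0.0309). TRIM21 on its other side had 0.14 ± 0.12 in HRA (adjusted p = 0.456) and rose in HRD (0.52 ± 0.12, adjusted p = 0.0111). Beside RRM2, KLF11 had 0.41 ± 0.16 (adjusted p = 0.106) and HPCAL1 0.51 ± 0.23 (adjusted p = 0.158) in HRA. Beside TK1, SYNGR2 had 0.42 ± 0.15 (adjusted p = 0.0730) and AFMID 0.17 ± 0.10 (adjusted p = 0.290) in HRA, and AFMID fell in HRD (−0.37 ± 0.10, adjusted p = 0.0260).

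TK1, the thymidine salvage kinase of S phase, stood at 3468, 3940 and 3306 in parental replicates 1, 2 and 3, at 4965, 5598 and 4765 in HRA and at 2631, 4447 and 3388 in HRD. The HRA libraries lay above all others, and the HRD libraries spanned the parental ones on both sides. The level rose from 3571 ± 329 to 5109 ± 435 in HRA (log2 0.52 ± 0.16, adjusted p = 0.0462), 1.43-fold, the largest fold of a member in that comparison, though close to the threshold. The call was lost without any single library of the 6 (adjusted p from 0.0560 to 0.158), with no filter on low values (0.0627) and with equal library totals (0.0522), and passed in the other 6 alternatives. In HRD the mean was 3488 ± 912 (−0.06 ± 0.16, adjusted p = 0.818, interval −0.41 to 0.28), and the value was 0.12 without HRD replicate 1, the lowest library. HRD differed from HRA by −0.58 ± 0.16 (adjusted p = 0.0174), a call lost without HRA replicate 2 (adjusted p = 0.0634).

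TYMS, the de novo source of thymidylate and the target of fluoropyrimidines and antifolates, had the highest level of the members per length of annotated exon. Its counts were 17150.1, 18729 and 15312 in parental replicates 1, 2 and 3, 16833, 17667 and 16929 in HRA, and 18074, 17713 and 14675 in HRD. The 3 groups overlapped throughout. Its log2 differences were 0.01 ± 0.10 in HRA (adjusted p = 0.954, interval −0.21 to 0.24) and −0.02 ± 0.10 in HRD (adjusted p = 0.906, −0.25 to 0.20). ENOSF1, whose end overlaps TYMS on the opposite strand, stood at 2497 ± 543, 2099 ± 242 and 2248 ± 358 in parental, HRA and HRD cells, and whether reads were counted by strand is not given in the sources used here, so reads of the overlap cannot be told apart.

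DUT, the dUTPase that keeps uracil out of DNA, was among the steadiest members, with 6117, 5678 and 5636 in parental replicates 1, 2 and 3, 6298, 6223 and 5911 in HRA, and 5994, 5717 and 5797 in HRD. The coefficient of variation within a group was 4.59%, 3.33% and 2.44%, and the groups overlapped. Its differences were 0.08 ± 0.07 in HRA (adjusted p = 0.457, interval −0.07 to 0.23) and 0.01 ± 0.07 in HRD (adjusted p = 0.957, −0.15 to 0.16).

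In the de novo pathway, CAD stood at 4829, 4564 and 4840 in parental replicates 1, 2 and 3, at 4971, 4708 and 5062 in HRA, and at 4251, 3834 and 4239 in HRD. All HRD libraries lay below all parental and all HRA libraries, which overlapped each other. The mean was 4744 ± 156 in parental cells, 4913 ± 184 in HRA and 4108 ± 237 in HRD. The HRD value of −0.21 ± 0.07 against parental cells did not pass (adjusted p = 0.0623), but did with the block (0.0280), without HRD replicate 1 (0.0497) and by DESeq2 (0.0494). Against HRA the difference of −0.26 ± 0.07 passed (adjusted p = 0.0214), 1.20-fold lower in HRD. It was lost with equal library totals (0.0787), with replicates 1 and 3 alone (0.149), without HRA replicate 1 or 3 (0.0795 and 0.0822) and without HRD replicate 2 (0.0801). In HRA the value against parental cells was 0.05 ± 0.07 (adjusted p = 0.681, interval −0.11 to 0.21).

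DHODH, the mitochondrial enzyme and a drug target in leukaemia, stood at 603, 505 and 412 in parental replicates 1, 2 and 3, at 454, 357 and 440 in HRA, and at 522, 499 and 520 in HRD. The HRD libraries lay above the HRA libraries, and both overlapped the parental ones, which spread widest. No difference passed: −0.27 ± 0.15 in HRA (adjusted p = 0.232, interval −0.59 to 0.05), 0.04 ± 0.15 in HRD (adjusted p = 0.894, −0.29 to 0.36) and 0.31 ± 0.15 for HRD against HRA (adjusted p = 0.135, −0.01 to 0.63). CTPS1 stood at 7499, 7274 and 5541 in parental replicates 1, 2 and 3, 7355, 7009 and 7580.5 in HRA, and 8231, 6557 and 6273 in HRD, all groups overlapping. Its values were 0.12 ± 0.13 in HRA (adjusted p = 0.543, −0.16 to 0.40) and 0.05 ± 0.13 in HRD (adjusted p = 0.807, −0.23 to 0.34).

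By whether the groups overlapped at all, 4 members were apart and higher in HRA than in parental cells, where 19.3% of all tested genes were, and no member was apart and lower (18.7% of genes, 38.0% in either direction). In HRD 1 member was apart and higher (17.1% of all genes) and 1 apart and lower, CAD (18.2%, 35.3% either way). Between HRD and HRA, 4 members were apart and lower in HRD (24.2%) and 1 was higher, DHODH (22.8%, 47.0% either way).

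Levels were also compared per length, as normalized reads per kilobase of annotated exon. That length joins the exons of all annotated transcripts of a gene and can exceed the transcript present, by an amount that may differ between genes. In parental cells the order of these levels was TYMS (10267 ± 1029), RRM1 (2988 ± 325), RRM2 (2702 ± 601), TK1 (2068 ± 191), DUT (1875 ± 86.0), CTPS1 (1169 ± 185), CAD (653 ± 21.5), DHODH (105 ± 19.8) and RRM2B (94.7 ± 9.65). In that order RRM1 and RRM2, RRM2 and TK1, TK1 and DUT, and DHODH and RRM2B had overlapping libraries, and the other neighbours were apart. In HRA the order of the last 2 was exchanged, with RRM2B at 127 ± 8.29 and DHODH at 86.3 ± 10.8, and only RRM1 and RRM2 among the neighbours overlapped. In HRD, RRM2B (137 ± 10.6) also stood above DHODH (106 ± 2.73). The small subunit RRM2B was thus at 0.0315 to 0.0444 times the level of RRM2 per length in parental libraries, at 0.0292 to 0.0394 times in HRA and at 0.0419 to 0.0542 times in HRD.

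Ratios within a library remove what moves both genes alike. The RRM2 to RRM1 ratio was 0.04 ± 0.17 on the log2 scale in parental cells, 0.04 ± 0.10 in HRA and 0.18 ± 0.11 in HRD, with overlapping groups in every comparison (exact permutation p = 1 for HRA and 0.3 for HRD against parental cells). The RRM2B to RRM2 ratio was −4.40 ± 0.28 in parental cells, −4.44 ± 0.22 in HRA and −3.96 ± 0.19 in HRD, apart between HRD and HRA. The TYMS to TK1 ratio kept to a narrow band in parental libraries (2.26 ± 0.05), was lower in every HRA library (1.75 ± 0.09) and spread widely in HRD (2.3 ± 0.42). The CAD to DHODH ratio was 3.24 ± 0.28 in parental cells, 3.56 ± 0.14 in HRA and 3.00 ± 0.05 in HRD, apart between HRD and HRA. With 3 libraries against 3 the exact two-sided permutation test cannot go below p = 0.1, which was reached in 4 of the 12 tests: TYMS to TK1 in HRA (difference −0.51) and in HRD against HRA (0.55), RRM2B to RRM2 (0.48) and CAD to DHODH (−0.57) in HRD against HRA. Adjusted over the 12 tests these exact permutation p-values were 0.3, so none passed.

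**Figure D4:**
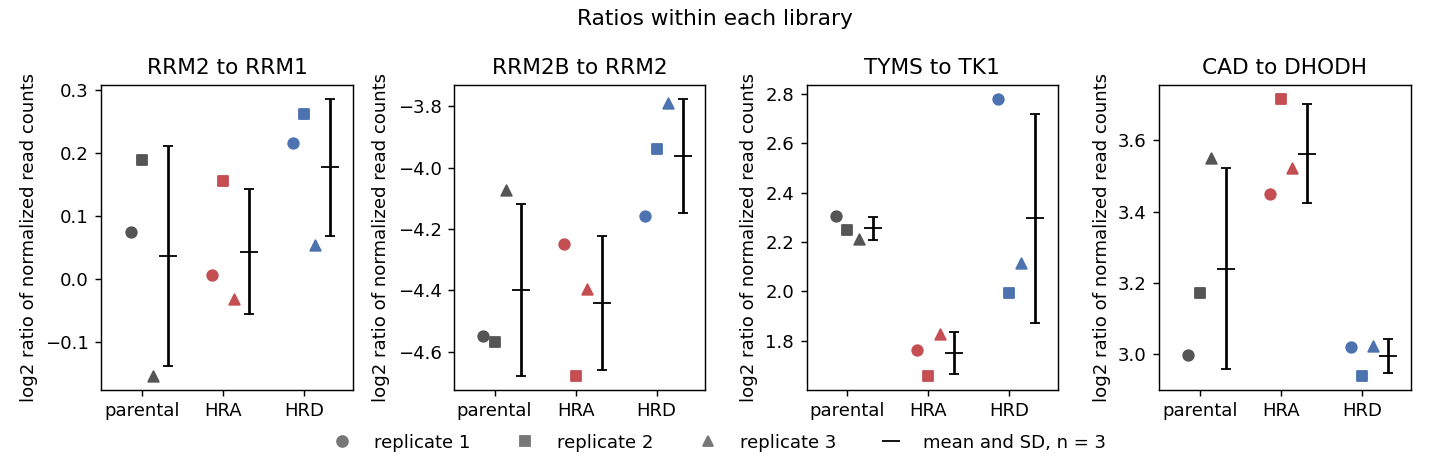
Log2 ratio of normalized read counts of 4 gene pairs (vertical axes, which do not start at 0) in each library, with the mean and SD of each group (n = 3). The TYMS to TK1 ratio of all HRA libraries lies below that of all parental and HRD libraries, and the RRM2 to RRM1 ratio overlaps between all groups.

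The genes that copy DNA in S phase were examined beside the members. Of 26 tested S-phase genes, 7 rose and none fell in HRA, where 9.13% of all tested genes rose and 6.10% fell (median log2 0.20, beside −0.01 over all genes), among them GINS4 (0.59), a subunit of the replicative helicase, MCM4 (0.51), CHAF1A (0.49), a histone chaperone, and the checkpoint adaptor CLSPN (0.49). In HRD none rose and 4 fell, a share close to the 12.0% of all genes that fell there (median −0.05, beside 0.01), the licensing factor CDC6 (−0.79), GINS1 (−0.61), the polymerase subunit POLE2 (−0.50) and the primase PRIM1 (−0.33). HRD against HRA gave 13 lower and none higher, where 16.2% and 13.9% of all genes were (median −0.29, beside 0.00). GINS4 and MCM4 lie on chromosome 8. Beyond these, the S-phase genes, CDC6 among them, were not set against the genes of their chromosomes. The summed level of the 26 genes ran from 126761 to 147949 in parental libraries, from 159696 to 165997 in HRA and from 133268 to 140144 in HRD, so HRA stood above both other groups. Without the 2 genes of chromosome 8 it ran from 117740 to 137980, from 146204 to 151923 and from 124036 to 129858. In bulk RNA a larger share of cells in S phase and more RNA per cell cannot be told apart. As a description chosen after the data were seen, each member was divided by the sum of all 26 genes in its own library. That sum includes the 2 genes of chromosome 8. RRM1 then differed by 0.24 and TK1 by 0.30 (log2) between HRA and parental cells, with groups that did not overlap, and RRM2 by 0.24 and RRM2B by 0.20, with groups that did. On that scale TYMS (−0.21), CAD (−0.17) and DHODH (−0.50) lay lower in every HRA library than in every parental one. RRM2B differed by 0.56 in HRD, with no overlap. The part of S phase in these differences was not tested further.

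**Figure D5:**
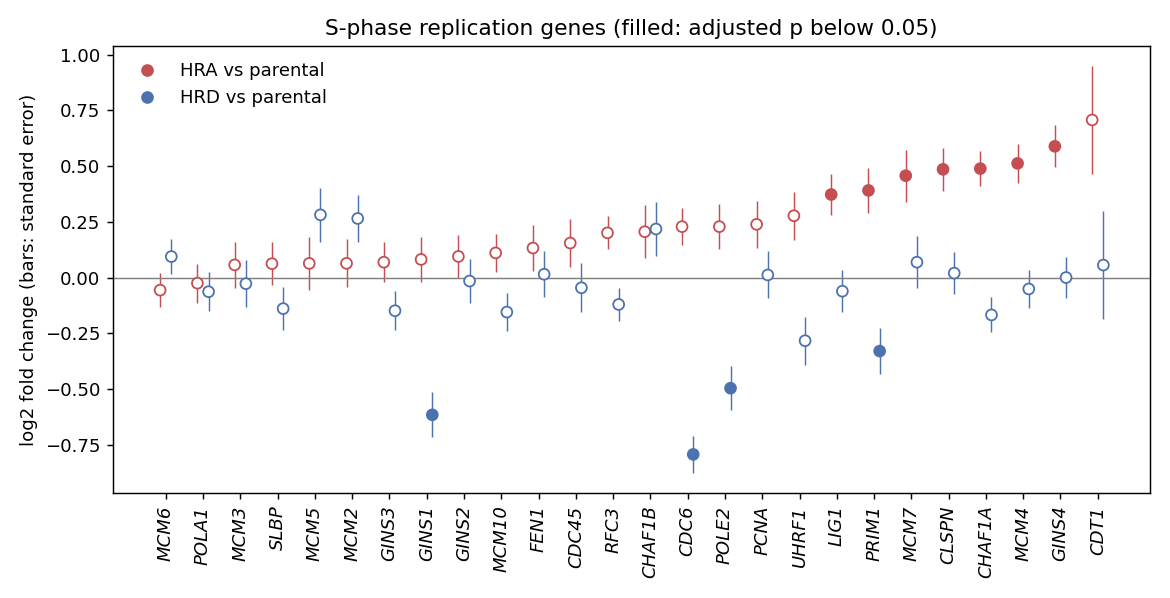
Log2 fold change (vertical axis, bars are standard errors) of 26 S-phase genes in HRA (red) and HRD (blue) against parental cells, filled where the adjusted p is below 0.05. The 7 filled HRA points lie above 0 and the 4 filled HRD points below it.

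Among 18 tested regulators of these genes, 5 rose and none fell in HRA (9.13% and 6.10% of all tested genes): the E2F family members E2F2 (0.98), E2F5 (0.56) and E2F8 (0.64) and the checkpoint kinases ATM (0.41) and CHEK1 (0.33). In HRD, E2F5 rose (0.71) and E2F1 (−0.60) and E2F7 (−0.53) fell, 3 of 18 where 22.8% of all genes were called. HRD against HRA gave 1 higher and 6 lower where 30.1% of all genes were called, E2F2 (−0.98), E2F1 (−0.84), CHEK1 (−0.47), E2F8 (−0.64) among them. The E2F family members E2F1, E2F3, E2F4, E2F6 and E2F7 did not pass in HRA by limma (adjusted p from 0.153 to 0.744). The list medians were −0.02, 0.01 and 0.02 in the 3 comparisons, beside −0.01, 0.01 and 0.00 over all genes. Unlike the members, the regulators were not set against the genes of their chromosomes, and the part of the chromosomes in their values was not tested. CCNF, the F-box protein that targets RRM2 for degradation, did not pass (−0.12 in HRA, adjusted p = 0.409, and −0.14 in HRD, adjusted p = 0.315).

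The enzymes around the members were followed over 40 tested genes of pyrimidine and thymidylate synthesis, salvage, nucleotide removal and the electron donors of ribonucleotide reductase. None rose and 4 fell in HRA by limma (median 0.05), against 6 and 6 in HRD (−0.12) and 5 higher and 9 lower for HRD against HRA (−0.03). Over all tested genes 15.2%, 22.8% and 30.1% were called, so these counts are not far from those shares. The falls in HRA were those of UMPS (−0.35, adjusted p = 0.0455), which completes UMP, the uridine-cytidine kinase UCK2 (−0.68, adjusted p = 0.00223), DCK (−0.34, adjusted p = 0.0235) and the glutaredoxin GLRX2 (−0.58, adjusted p = 0.0213). DCK stood at 4043 ± 219 in parental cells, 3193 ± 52.8 in HRA and 3631 ± 394 in HRD. CMPK1, the kinase of CMP, UMP and dCMP, fell in HRD from 9049.9 ± 318 to 5673 ± 854 (−0.68, adjusted p = 7.18e-04), while its value in HRA was 0.32 (adjusted p = 0.0539), and HRD differed from HRA by −1.0 (adjusted p = 4.79e-05). CTPS2, the second CTP synthase, rose in HRD (0.50, adjusted p = 0.0114). These 40 genes were not set against the genes of their chromosomes, and the part of the chromosomes in their values was not tested.

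In salvage, the uridine and thymidine phosphorylases UPP1 (1.12, adjusted p = 0.0276) and TYMP (1.29, adjusted p = 0.0233) rose in HRD from low levels, 31.1 to 66.3 and 15.9 to 40.4, and the transporter SLC29A2 fell (−0.42, adjusted p = 0.0489). None of 9 thymidylate and folate genes passed in either resistant cell against parental cells by limma, and SHMT1 (−0.38) was lower in HRD than in HRA. Of 12 genes that remove or clean nucleotides, none passed in HRA by limma, where 15.2% of all tested genes were called. In HRD, where 22.8% were called, the uracil-DNA glycosylases UNG (−0.41) and SMUG1 (−0.59) and the nucleotidase NT5C2 (−0.30) fell. ITPA (0.35) and NT5M (0.65) rose there. SAMHD1, the dNTP hydrolase, did not pass (0.22, adjusted p = 0.118, in HRA and 0.14, adjusted p = 0.284, in HRD). Of 7 electron donors, GLRX rose (0.41) and TXN fell (−0.35) in HRD. Of 18 purine synthesis genes, GART rose (0.33) and ADSS fell (−0.51) in HRA, where 15.2% of all tested genes were called. In HRD, where 22.8% were called, 2 were higher and 3 lower, with GART (0.43) and ADSS (−0.43) again among them. The purine genes were not set against their chromosomes either.

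For each member the genes with the most similar pattern were taken as those with the smallest root mean square difference in centred log2 values over the 9 libraries, among 9796 tested genes with a mean of at least 100. For RRM1 these were RAD54L (0.057), EMC1 (0.057) and ESYT2 (0.059), where the median over all compared genes was 0.32. For RRM2 they were SLC27A2 (0.073), PYGL (0.094) and NRIP3 (0.097), for RRM2B CPT2 (0.067), ZFP41 (0.069) and SLC25A24 (0.071), and for TK1 GNA15 (0.10), LSM4 (0.11) and RPS9 (0.11). The nearest genes of the other members were TMEM127 (0.033) for TYMS, FANCC (0.034) for DUT, NARS2 (0.036) for CAD, ABCF2 (0.050) for CTPS1 and PTS (0.083) for DHODH. The median over all compared genes differed by member, 0.20 for DUT, 0.22 for TYMS and 0.38 for TK1. The root mean square of the member's own centred values was 0.056 for DUT and 0.11 for TYMS, beside 0.25 for RRM1. The differences are therefore not comparable between members, and small ones for DUT and TYMS are shared by other steady genes. No member was among the 3 nearest genes of another.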

How the data were processed

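The 9 members and the gene lists were chosen with earlier results of these data known. Per the labels' protocols, stranded libraries of polyadenylated RNA were made, with 3 replicates per group. Per the submitters' processing notes, the tools included HTSeq 0.11.1 and DESeq2, TopHat2 2.1.1 and Bowtie2 2.3.5.1, with hg19 as build, while their order, the annotation and the strand setting are not given in the sources used here. The authors deposited a normalized signal, in which reads per gene are scaled by 1 size factor per library. Whole reads were recovered, since 100% of values above 0 were whole multiples of 1 constant per library (tolerance 0.001).

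The filter required a value of 10 or more in 3 or more of the 9 libraries and left 12569 of 20637 genes for testing. limma 3.58.1 (R 4.3.3) was fitted to log2(value + 1) over all 9 libraries with a variance trend, adjusted by Benjamini-Hochberg over all tested genes. Fold changes are on the log2(value + 1) scale. Errors of fold changes are SE and those of levels SD. The alternatives were pseudocount 10, no filter, equal library totals, only the groups compared, the replicate number as a block, replicates 1 and 3 alone, leaving out each library, and edgeR 4.0.16 and DESeq2 1.42.0 on recovered reads, which called 1924, 2852 and 3800 and 2366, 3144 and 4105 genes in the 3 comparisons (HRA and HRD against parental cells, HRD against HRA). Only the main limma fit of HRA against parental cells was tried on simulated counts, drawn without a replicate effect. The other fits were not.

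Deviations from the group means correlated above 0.1 in every same-numbered pair of parental and HRA libraries. For these, r was 0.22, 0.38 and 0.14 in replicates 1, 2 and 3. It was −0.08, 0.26 and 0.29 for parental and HRD, and −0.03, 0.41 and 0.23 for HRA and HRD. Between libraries with different numbers r ran from −0.28 to 0.12 for parental and HRA. The range was −0.40 to 0.10 for parental and HRD and −0.41 to 0.22 for HRA and HRD, so some such pairs reached the lower same-numbered values. The main fit and the permutation tests did not pair libraries, and only the block fit took up the replicate number. Chromosomes and neighbours came by symbol from RefSeq genes of GRCh38.p14 (12314 of 12569 tested genes), promoters from RefSeq, and lengths as the union of exons in GENCODE basic transcripts, an assembly other than that of the counts. The rule for named list genes was at most 4 called per list and comparison by adjusted p, with some that did not pass. Where 5 of a list were called all 5 are named, outside that rule and after their values were seen, and so are the markers of cell types. Some genes of the lists and neighbours are not reported here.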

Additional observations from a re-analysis of the deposited data

Results flagged for a closer look

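For RRM1, TK1 and CAD the difference of HRD from parental cells and that of HRA from parental cells were unequal by the test of HRD against HRA, which tests this directly because both are taken against the same parental libraries (limma). Resistance, drug exposure and other features of the 2 cell populations cannot be told apart here. The HRD difference minus the HRA difference was −0.50 for RRM1, with 0.46 in HRA and −0.04 in HRD, −0.58 for TK1, with 0.52 and −0.06, and −0.26 for CAD, with 0.05 and −0.21.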

How the results depend on the processing

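With replicates 1 and 3 alone, limma called 712 genes in HRA, 1470 in HRD and 1825 between HRD and HRA, and 1 member in HRA, where fewer libraries enter the fit. Leaving out each library gave 904 to 1539, 2034 to 2899 and 2391 to 3280 genes, and 0 to 3, 1 to 2 and 2 to 3 members. In HRD the replicate block and DESeq2 each called 2 members. No log2 fold change of a called member reversed under any alternative. Of the members' values under alternatives, 327 kept direction and call, 7 gained and 22 lost the call, and 22 reversed, all of members not called in that comparison, and the cause was not tested. With equal library totals TYMS was −0.025 in HRA and 0.0051 for HRD against HRA. With replicates 1 and 3 alone RRM1 was 0.036 and TYMS 0.0072 in HRD. Over each library left out, the values in HRA ran from −0.015 to 0.20 for CTPS1 and from −0.064 to 0.081 for TYMS. In HRD they ran from −0.084 to 0.13 for CTPS1, −0.10 to 0.17 for DHODH, −0.014 to 0.045 for DUT, −0.12 to 0.040 for RRM1, −0.068 to 0.26 for RRM2, −0.25 to 0.12 for TK1 and −0.098 to 0.073 for TYMS. For HRD against HRA they ran from −0.19 to 0.0070 for CTPS1 and −0.088 to 0.062 for TYMS. Of the ratios, RRM2 to RRM1 ran from −0.089 to 0.083 and RRM2B to RRM2 from −0.14 to 0.12 in HRA, and TYMS to TK1 from −0.20 to 0.19 in HRD. The replicate block changed the call of RRM2 in HRA and between HRD and HRA and of CAD in HRD, and no other member's call. A member's fewest reads, 264, limit its precision to a counting error of 6.15%.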
